A study of Mus musculus with 30 samples.

Results

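In mouse embryonic fibroblasts whose p53 had been restored and whose DNA was then damaged with doxorubicin, a p53 siRNA lowered the known p53 target genes as a group and raised most interferon response genes and some mitotic and sterol synthesis genes. The comparison consists of the 3 arrays titled siP53 and the 2 arrays titled siScramble in the lincP21KD experiment, which is 5 of the 30 arrays analysed. The arrays were chosen by these titles alone, and no measured value entered the choice. The cells were p53 LSL/LSL fibroblasts from E13.5 embryos of a C57BL/6 x 129SvJ background, grown in DMEM with 10% FBS. An LSL allele carries a stop cassette between loxP sites and is silent until Cre removes it. Cells of both groups received an adenovirus carrying Cre (AdenoCRE) for 24 h, then siRNA for 24 h, and then 100 nM doxorubicin, a drug that breaks DNA, for 13 h. The siP53 cells received siRNA against p53, and the siScramble cells a pool of siRNAs with no target. The controls thus carry restored p53 and DNA damage as well, and the comparison asks what p53 maintains in such cells.

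p53 is a transcription factor that is stabilised when DNA breaks and binds response elements in and near its target genes. Its targets halt the cell cycle, start apoptosis, repair DNA and limit p53 itself, as Mdm2 does by marking p53 for destruction. Genes that drive cell division fall when p53 is active, in large part indirectly, because the p53 target Cdkn1a holds the repressive DREAM complex on their promoters.

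The transcripts of p53 and of lincRNA-p21 are not analysed here, so the depth of either knockdown was read only from other genes. Sets of arrays used beside the 5 were the 3 siLincP21 arrays of the same experiment (siRNA against lincRNA-p21, a noncoding RNA induced by p53), 3 siP53 and 3 siControl arrays of the hnRNPKKD experiment (same cells, virus, drug and times, siControl being a pool with no target), and a time course of 5 AdenoCRE and 5 AdenoGFP arrays. The time course used 24 h of virus and 500 nM doxorubicin for 1, 3, 6 and 9 h, with an untreated pair at 0 h, and its viruses also differ in Cre and GFP. The sources do not say whether replicates were separate cultures, so p-values measure only the spread between these arrays. Each array measured bulk RNA, in which fewer cells of a type cannot be told apart from less RNA per cell.

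Values are log2 RMA signal, differences are siP53 minus siScramble in log2 units with standard errors (SE) from limma, and a gene was called at a Benjamini-Hochberg adjusted p below 0.05 over 12674 tested genes. Medians over tested genes were 8.32 to 8.34 on the siP53 arrays and 8.31 to 8.37 on the siScramble arrays. Of all tested genes 1615 (12.7%) were called, 888 higher (7.01%) and 727 lower (5.74%), and the median difference of all genes was 0.02. The control group decided how many genes were called: 620 were called without siScramble R1 and 701 without siScramble R2. Where 1 siScramble array remained, its spread was taken to be that of the other groups. By at least 2-fold, 52 genes rose (0.41%) and 91 fell (0.718%). The called falls had a median of -0.49 and reached -4.41, and the called rises had a median of 0.47 and reached 2.43. Values of the 2 groups did not overlap for 46.2% of tested genes.

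The label of the cells as fibroblasts was checked against 13 markers, all of which were above the limit on low values (a mean of 4.544). They summed to between 121647 and 126494 units of linear signal on the siP53 arrays and between 110857 and 113827 on the siScramble arrays. On the siLincP21 arrays the sum was 122777 to 126256, inside the range of the siP53 arrays. Collagen Col3a1 (0.63 ± 0.10) and the PDGF receptors Pdgfra (0.52 ± 0.10) and Pdgfrb (0.59 ± 0.17) rose, against 7.01% of all tested genes. Of the 13 markers 0 fell, and Vim and Thy1 were not called. Pdgfra lost its call without siScramble R2, and Pdgfrb lost its call in 8 of the 17 alternatives. Marker lists of other cell types are described with the results they accompany.

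Cdkn1a encodes the cyclin-dependent kinase inhibitor p21 and is the best known arrest gene under p53. Its level was 10.53, 10.31 and 10.68 on the siP53 arrays, against 12.48 and 12.68 on the siScramble arrays. All 3 siP53 values lay far below both control values, and the difference was -2.07 ± 0.11 (limma, adjusted p = 4.91e-06). On the siLincP21 arrays it was 12.66, 12.57 and 12.52, inside the range of the controls, and the siP53 and siLincP21 groups differed by -2.08 ± 0.10 (limma, adjusted p = 1.74e-06). Cdkn1a was the only one of 11 tested genes around its own locus that was called, against 12.7% of all tested genes. Mdm2, the ubiquitin ligase that p53 induces against itself, read 9.66, 9.51 and 9.99 with siP53 and 12.003 and 12.16 with siScramble, a difference of -2.36 ± 0.15 (limma, adjusted p = 1.59e-05). Of its other probe sets, one gave -2.54, and one whose mean lay under the limit on low values gave -0.54.

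The largest change of any tested gene was in 1700007K13Rik, a gene known by its clone name and picked out after its values were seen. It read 5.96, 5.67 and 6.22 on the siP53 arrays and 10.25 and 10.47 on the siScramble arrays, with a difference of -4.41 ± 0.15 (limma, adjusted p = 4.63e-07). No siP53 array came within several log2 units of a control. It fell in the hnRNPKKD experiment as well (-5.36 ± 0.62) and rose when AdenoCRE was set against AdenoGFP (4.67 ± 0.60).

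The stretch around the gene start of both genes, and of the p53 target Ccng1, is shown because each window holds letters that match the p53 response element. The sequences are RefSeq windows of the GRCm38.p6 build, 250 bases before to 50 bases after the annotated start, on the strand of the gene. Capitals mark each match, a pair of 10-base blocks with a spacer of 0 or 1 base, with the fixed C and G of each block kept and at most 2 other mismatches.
Cdkn1a (chr17:29090729-29091028, plus strand): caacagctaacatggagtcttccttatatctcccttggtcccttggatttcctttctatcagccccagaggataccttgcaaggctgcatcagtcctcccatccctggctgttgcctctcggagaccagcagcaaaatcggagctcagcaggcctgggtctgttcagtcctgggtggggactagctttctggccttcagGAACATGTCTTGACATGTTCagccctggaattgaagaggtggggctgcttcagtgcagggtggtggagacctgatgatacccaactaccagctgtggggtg
Ccng1 (chr11:40755237-40755536, minus strand): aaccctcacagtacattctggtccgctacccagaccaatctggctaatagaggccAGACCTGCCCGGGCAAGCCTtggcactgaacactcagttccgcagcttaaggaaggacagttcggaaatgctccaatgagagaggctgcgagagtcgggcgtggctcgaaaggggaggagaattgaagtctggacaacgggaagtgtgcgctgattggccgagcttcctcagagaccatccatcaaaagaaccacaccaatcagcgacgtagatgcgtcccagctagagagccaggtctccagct
1700007K13Rik (chr2:28466275-28466574, minus strand): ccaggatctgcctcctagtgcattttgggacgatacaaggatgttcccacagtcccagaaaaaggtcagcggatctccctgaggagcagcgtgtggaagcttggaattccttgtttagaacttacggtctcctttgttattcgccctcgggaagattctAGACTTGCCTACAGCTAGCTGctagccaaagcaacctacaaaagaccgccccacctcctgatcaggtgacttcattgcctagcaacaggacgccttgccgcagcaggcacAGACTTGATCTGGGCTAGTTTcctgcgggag
The 10232 tested genes with such a window had 13061 windows, and a gene was counted if any of its windows held a match. Of the 10232 genes 96 (0.938%) held one. Among called falls it was 18 of 592 (3.04%), and among falls of at least 2-fold 7 of 71 (9.86%). Among called rises 2 of 673 (0.297%) held one. In the p53 target list 4 of 37 genes (10.8%) did. A match describes letters, not binding, and most p53 targets had none in these windows.

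p53 targets as a group fell. The list, chosen with earlier results of these data known, held 46 tested genes taken as activated by p53. Of these 35 fell, 1 rose and 10 were not called, against 5.74% falling among all tested genes. The median of the list was -1.02, against 0.02 for all genes. Averaged over the list, the 3 siP53 arrays lay -1.06, -1.17 and -0.92 from the siScramble mean, and the siLincP21 arrays lay at 0.05, 0.03 and -0.05. The count of falling targets stayed between 32 and 36 over the 17 alternatives, so it moved far less than the total of calls. Directly against siLincP21, 39 of the 46 were lower (11.2% of all tested genes) and 2 were higher, with a median of -1.11.

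**Figure D1:**
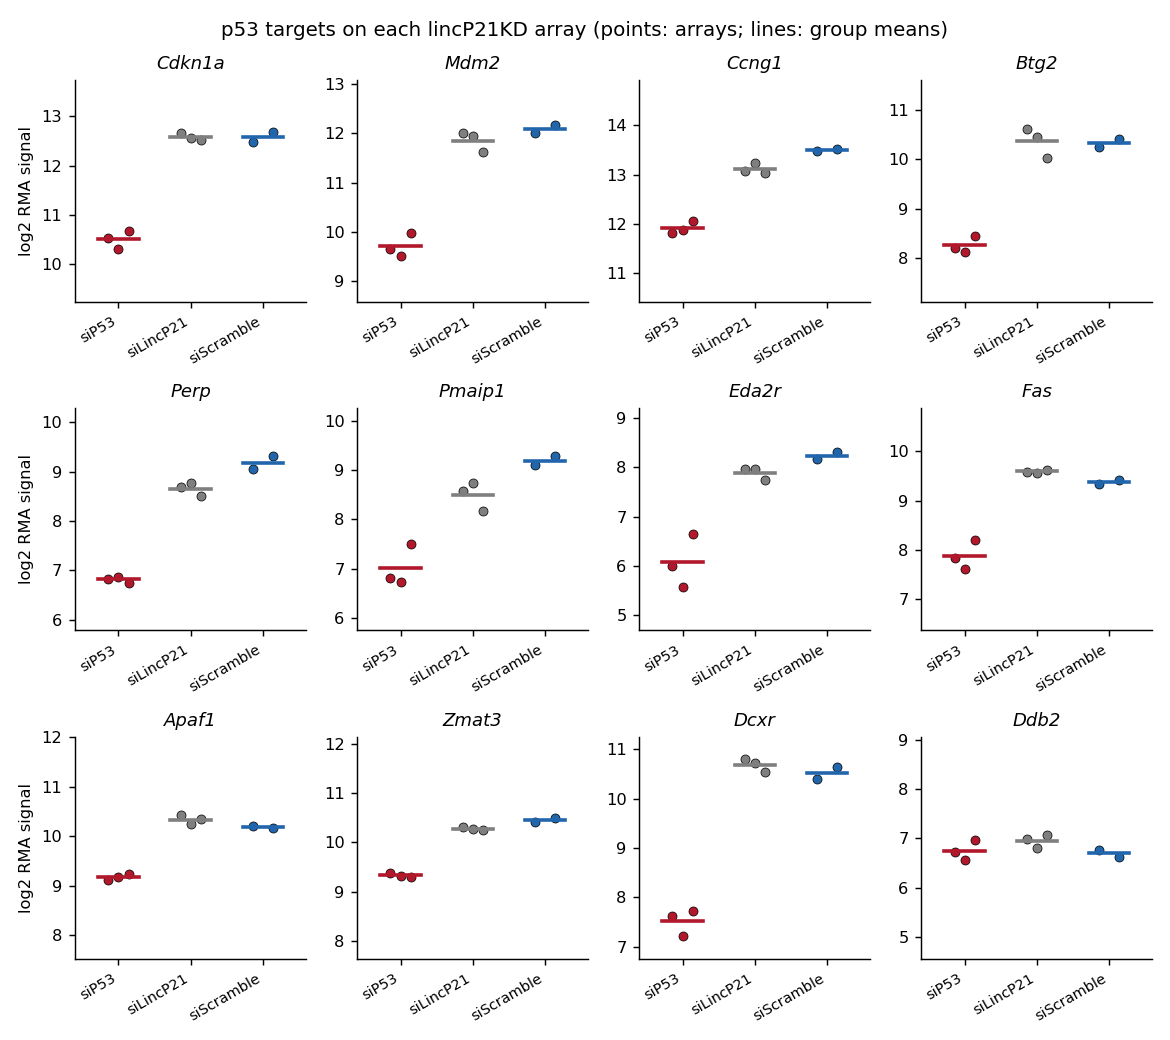
Log2 RMA signal of 12 p53 targets on each array of the lincP21KD experiment, as siP53, siLincP21 and siScramble; points are arrays, lines are group means, and all panels span the same number of log2 units. For 11 of the genes the 3 siP53 arrays lie below every other array, with Cdkn1a differing by -2.07 and Dcxr by -2.996 from siScramble, while Ddb2 (0.06) was not called.

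Among targets with different roles in the cell cycle, Btg2, an antiproliferative cofactor, read 8.20, 8.12 and 8.45 with siP53 and 10.26 and 10.42 with siScramble (-2.08 ± 0.16, limma, adjusted p = 5.21e-05). Psrc1, which encodes a microtubule-binding protein, had 8.86, 8.90 and 8.72 with siP53 and 10.50 and 10.51 with siScramble (-1.68 ± 0.08). Both groups were tight and well apart for the 2 genes. Gtse1, a regulator of p53 in G2, fell by 0.74.

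Of the 8 tested inhibitors of cyclin-dependent kinases 2 fell, Cdkn1a and Cdkn1c, and 2 rose (5.74% and 7.01% of all tested genes). Cdkn1c, the inhibitor p57, read 5.85, 5.99 and 5.91 with siP53 and 6.40 and 6.45 with siScramble (-0.51 ± 0.08, limma, adjusted p = 0.0031). Cdkn3 (0.40 ± 0.08) and Cdkn1b (0.41 ± 0.11), the inhibitor p27, rose, and both lost the call when siScramble R1 or siScramble R2 was left out.

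Some of the p53 targets that act in cell death fell. Perp, a membrane protein of the PMP22 family that p53 induces in apoptosis, read 6.83, 6.86 and 6.74 with siP53 and 9.04 and 9.32 with siScramble (-2.37 ± 0.11, limma, adjusted p = 1.51e-06). Pmaip1, the BH3-only protein NOXA, read 6.81, 6.73 and 7.51 with siP53 and 9.10 and 9.28 with siScramble (-2.18 ± 0.22). The siP53 R3 array was the highest of its group for Pmaip1 but still below both controls. The death receptor Fas read 7.83, 7.62 and 8.21 with siP53 and 9.34 and 9.43 with siScramble (-1.50 ± 0.14), and the TNF receptor family member Eda2r read 6.004, 5.58 and 6.65 with siP53 and 8.16 and 8.31 with siScramble (-2.16 ± 0.24). Apaf1, the scaffold of the apoptosome, read 9.10, 9.17 and 9.23 with siP53 and 10.20 and 10.17 with siScramble (-1.02 ± 0.08). For each of these 3 genes the groups stood apart with no overlap.

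Of 27 tested genes of the BCL2 family and death pathway 6 fell and 1 rose (5.74% and 7.01% of all tested genes). The median was -0.05, and the 6 that fell are all in the p53 target list too. The BH3-only gene Bbc3 (PUMA) was at -0.32 ± 0.12 and was not called. The BCL2 family genes Bcl2, Bcl2l1, Mcl1 and Bak1 lay between -0.16 and 0.10 and were not called. Diablo, which frees caspases from their inhibitors, rose by 0.36 ± 0.08, a call lost when siScramble R1 or siScramble R2 was left out.

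Among the genes that limit or modulate p53, 7 of 16 fell (5.74% of all tested genes) and 0 rose. The median was -0.25, and 5 of the 7 are also in the target list. Ccng1, cyclin G1, which brings the phosphatase PP2A to Mdm2, read 11.83, 11.89 and 12.06 with siP53 and 13.47 and 13.52 with siScramble (-1.58 ± 0.09, limma, adjusted p = 1.03e-05). Its other probe sets gave -1.82 and -1.92. Trp53inp1, a stress protein that acts on p53, read 9.04, 9.24 and 9.87 with siP53 and 11.12 and 11.28 with siScramble (-1.82 ± 0.22). Zmat3, an RNA-binding zinc finger protein, read 9.38, 9.31 and 9.29 with siP53 and 10.40 and 10.49 with siScramble (-1.12 ± 0.07). The lowest control lay above the highest siP53 array for all 3. Mdm4, the partner of Mdm2, was at -0.32 and not called.

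The next 3 targets act in repair and metabolism. Ercc5, the nuclease XPG of nucleotide excision repair, read 7.24, 6.84 and 7.34 with siP53 and 8.53 and 8.73 with siScramble (-1.49 ± 0.13), with a second probe set, whose mean was under the limit on low values, at -0.29. Dcxr, a carbonyl reductase, read 7.63, 7.22 and 7.72 with siP53 and 10.40 and 10.64 with siScramble (-2.996 ± 0.15, limma, adjusted p = 2.16e-06) and was the largest fall in the target list. Sesn2, a stress-induced regulator of mTORC1, fell to 7.84, 7.69 and 8.20 with siP53, against 8.82 and 8.99 with siScramble (-0.99 ± 0.15). Its relative Sesn1 was the single target that rose (0.36 ± 0.09), and that call was lost in 6 of the 17 alternatives. The uncalled targets were Bbc3, Xpc, Dram1, Tigar, Rrm2b, Ctsd, Rap2b, Ddb2, Triap1 and Plk3, between -0.32 and 0.18.

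Of the 91 genes that fell at least 2-fold, 25 were in the p53 target list and 63 were in none of the 33 lists. Cox6b2, a testis form of a cytochrome c oxidase subunit, read 5.80, 5.72 and 6.07 with siP53 and 8.30 and 8.65 with siScramble (-2.61 ± 0.13). Celf5, an RNA-binding protein, read 5.07, 5.13 and 5.39 with siP53 and 7.60 and 7.85 with siScramble (-2.53 ± 0.11). Acaa1b, a peroxisomal thiolase, read 4.19, 4.43 and 4.48 with siP53 and 6.66 and 7.01 with siScramble (-2.47 ± 0.12), so that its siP53 values lay under the limit on low values. For all 3 genes every siP53 array was more than 2 log2 units below both controls. Tbc1d8, a Rab GTPase-activating protein (-2.36 ± 0.10, other probe set -0.49), Cdc42bpg, a kinase downstream of Cdc42 (-2.19 ± 0.09), and Tex15, known from germ cells (-2.10 ± 0.17), fell by similar amounts.

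**Figure D2:**
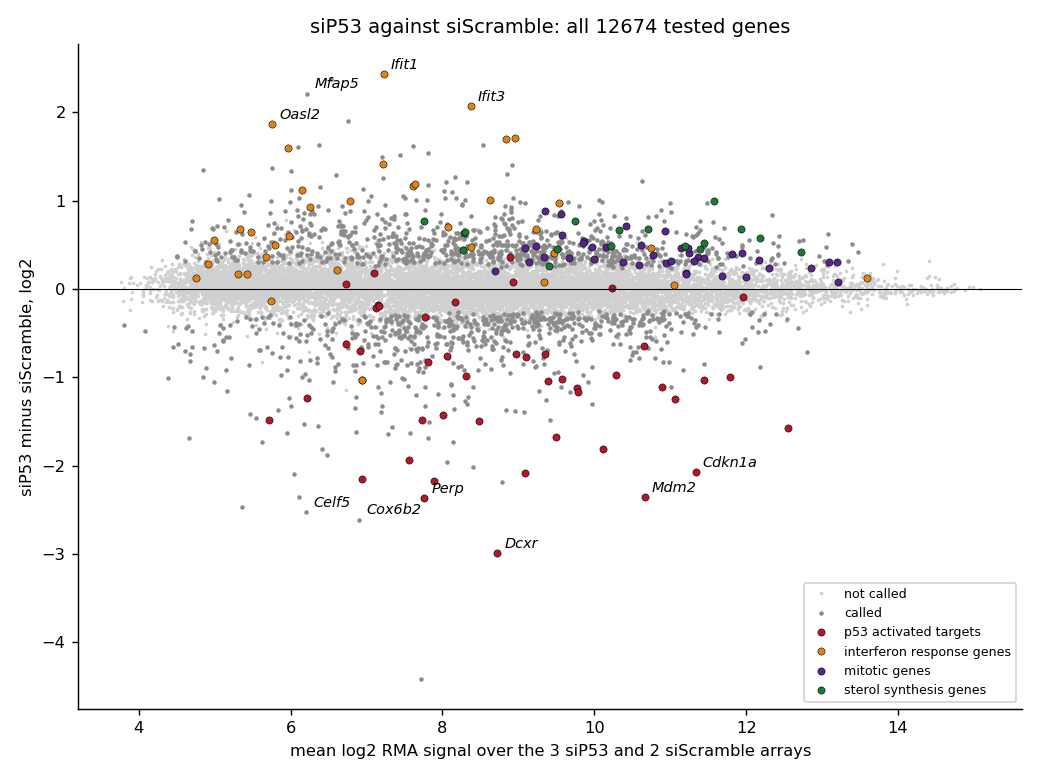
Difference siP53 minus siScramble (log2) against the mean log2 RMA signal over the 5 arrays for the 12674 tested genes; dark grey points are called, and 4 gene lists are coloured. The p53 targets reach down to -2.996 (Dcxr), the interferon genes run between -1.04 (Tap1) and 2.43 (Ifit1), and all tested mitotic and sterol genes lie above 0.

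Interferon response genes rose, and supplied 11 of the 52 rises of at least 2-fold. Of 35 tested, 23 rose, 1 fell and 11 were not called, against 7.01% rising among all genes, and the median of the list was 0.64. Averaged over the list, the siP53 arrays lay 0.55, 0.75 and 0.96 above the siScramble mean, the siLincP21 arrays 0.17, 0.09 and 0.12 above it, and the siScramble arrays were 0.05 and -0.05 from it. Every siP53 array was above every other array, and the siP53 arrays also spread the most. The count fell to 16 without siScramble R1 and to 10 without siScramble R2. Directly against siLincP21, 22 were higher (9.22% of all tested genes) and 1 was lower, with a median of 0.53.

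Ifit1, which binds viral RNA caps, read 7.69, 8.48 and 8.43 with siP53 and 5.53 and 6.000 with siScramble (2.43 ± 0.22, limma, adjusted p = 0.000114), the largest rise of the comparison. Ifit3, its partner, read 8.93, 9.20 and 9.46 with siP53 and 7.05 and 7.20 with siScramble (2.07 ± 0.14). The 2 groups were separated by over 1 log2 unit for both genes, with siP53 R1 the lowest of its group each time. Oasl2, of the oligoadenylate synthetase family, read 5.76, 6.76 and 6.99 with siP53 and 4.91 and 4.38 with siScramble (1.86 ± 0.30, limma, adjusted p = 0.0033). Usp18, which removes ISG15 and dampens the interferon receptor, read 6.34, 6.43 and 7.03 with siP53 and 5.17 and 4.83 with siScramble (1.60 ± 0.21).

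Members of the signalling chain rose along with the effectors. Irf9 (1.16) and Stat2 (0.93), transcription factors of the interferon pathway, were called, as were the RNA sensor Ifih1 (1.12), the chemokine Cxcl10 (1.42) and the GTPase Gbp2 (1.19 ± 0.14). Rtp4 (1.71 ± 0.21) and Xaf1 (1.70 ± 0.31) rose as well, and Xaf1 lost its call without siScramble R2. A second probe set of Xaf1 gave 0.34, and one of Rtp4, whose mean lay under the limit on low values, gave 0.26. The 1 member that fell was Tap1, the antigen peptide transporter (-1.04 ± 0.11), which is also in the p53 target list. Its other probe sets, with means under the limit on low values, gave -0.05 to 0.19, and the call was lost when probe sets were averaged. Oas2 (-0.14), Ifit2 (0.08) and B2m (0.12) were not called.

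The window at the start of Ifit1 is shown because it holds the interferon-stimulated element GAAA NN GAAA (written without gaps, N being any base), searched on both strands, and capitals mark the matches.
Ifit1 (chr19:34640639-34640938, plus strand): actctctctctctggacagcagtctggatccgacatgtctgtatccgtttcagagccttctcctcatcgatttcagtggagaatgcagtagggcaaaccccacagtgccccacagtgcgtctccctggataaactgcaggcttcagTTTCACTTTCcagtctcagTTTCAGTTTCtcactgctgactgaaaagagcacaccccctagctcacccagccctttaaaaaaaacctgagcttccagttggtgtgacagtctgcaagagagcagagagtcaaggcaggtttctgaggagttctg
Among genes with a window, this element was found in 14 of 28 (50%) of the interferon list and in 9 of 35 (25.7%) that rose at least 2-fold. It was found in 347 of all 10232 such tested genes (3.39%), any window of a gene being enough.

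In the hnRNPKKD experiment 11 of the 35 interferon genes rose with siP53 and 5 fell, against 19.3% and 19.2% of all tested genes, and the median was 0.14. Its siP53 arrays lay 0.06, 0.58 and 0.19 above the siControl mean over the list, so that siP53 R1 there was at the level of siControl R2 and R3 (0.07 and 0.05). The direct test of the difference between the 2 siP53 effects called 4 of the 35, against 14.5% of all tested genes. Ifi35, Psmb9 and Tap1 had a higher value in lincP21KD and Ifit2 a lower one. None of these 4 rose in lincP21KD. The median difference between the experiments was 0.49 for the list, against 0.03 for all genes. At an unadjusted p below 0.05 in limma 13 of the 35 differed, against 3581 of the 12674 tested genes. Ifit1 rose by 1.48 ± 0.37 in hnRNPKKD, and its difference between the experiments was 0.96 ± 0.51 (limma, adjusted p = 0.228). Usp18 was at -0.23 ± 0.63 there and was not called, and its difference of 1.83 ± 0.81 was not called either. In AdenoCRE compared with AdenoGFP cells 16 of the 35 fell (6.24% of all tested genes) and 1 rose.

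Inflammatory and NF-kB genes did not move as one, with 3 rising and 3 falling of 22 tested and a median of -0.02. Among all tested genes 7.01% rose and 5.74% fell. The chemokines Cxcl5 (0.80 ± 0.10) and Ccl5 (1.03 ± 0.14) rose. Ptgs2, the cyclooxygenase COX-2, read 10.98, 11.13 and 11.23 with siP53 and 11.98 and 11.93 with siScramble (-0.85 ± 0.14), and the cytokine Lif (-0.84 ± 0.14) fell as well, although another probe set of Lif gave 0.04. Ptgs2 and Lif were also lower with siLincP21 than with siScramble (-0.53 ± 0.14 and -0.67 ± 0.14), and neither differed between siP53 and siLincP21 by a call (-0.32 ± 0.12 and -0.18 ± 0.13).

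Of 40 tested mitotic genes 14 rose, 26 were not called and 0 fell, against 7.01% rising among all genes, with a median of 0.36. For 36 of the 40 the siP53 and siScramble arrays did not overlap, against 46.2% of all tested genes. Averaged over the list, the siP53 arrays lay 0.48, 0.45 and 0.24 above the siScramble mean and the siLincP21 arrays 0.20, 0.24 and 0.06. The siP53 R3 and siLincP21 R2 arrays thus stood at the same level. The count moved between 5 (without siScramble R1) and 32 over the alternatives, and was 9 without siScramble R2.

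Nek2, a kinase of the centrosome, read 9.71, 9.66 and 9.76 with siP53 and 8.87 and 8.78 with siScramble (0.88 ± 0.08, limma, adjusted p = 0.000114). Ndc80, of the outer kinetochore, read 9.91, 9.80 and 9.74 with siP53 and 9.15 and 9.27 with siScramble (0.61 ± 0.08), and its partner Nuf2 read 10.77, 10.82 and 10.52 with siP53 and 9.89 and 10.09 with siScramble (0.71 ± 0.11). The groups stood apart for these 3 genes, each by more than the spread within a group. Aurkb, the kinase of the chromosomal passenger complex, rose by 0.85 ± 0.14, which missed the threshold without siScramble R1. The window at the start of Ndc80 is shown because it holds TTCAAA (capitals), which reads TTTGAA on the opposite strand. TTTGAA is the core of the CHR element through which the DREAM complex acts.
Ndc80 (chr17:71526808-71527107, minus strand): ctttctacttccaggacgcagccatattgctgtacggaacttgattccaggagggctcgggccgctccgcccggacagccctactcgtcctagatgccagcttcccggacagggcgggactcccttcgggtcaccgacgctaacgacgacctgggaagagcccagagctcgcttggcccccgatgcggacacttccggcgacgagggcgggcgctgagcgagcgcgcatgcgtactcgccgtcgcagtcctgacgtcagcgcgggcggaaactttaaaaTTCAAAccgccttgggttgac
On either strand TTTGAA was found in any window of 26 of 35 genes (74.3%) of the mitotic list that had a window. Among all 10232 tested genes with a window it was found in 1452 (14.2%).

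Against siLincP21, 9 of the 40 mitotic genes were higher with siP53 (9.22% of all tested genes) and 0 were lower, with a median of 0.21. In hnRNPKKD 33 of the 40 rose with siP53 (19.3% of all tested genes) and 0 fell, with a median of 0.94. The difference between the experiments was called for 21 of the 40, all lower in lincP21KD (7.14% of all tested genes). With AdenoCRE against AdenoGFP, 18 of the 40 fell (6.24%) and 0 rose.

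Of 43 DNA replication genes 8 rose (7.01% of all tested genes) and 0 fell, with a median of 0.15. The count was 1 without siScramble R1 and 3 without siScramble R2. Rfc1, the large subunit of the clamp loader, read 9.34, 9.34 and 9.34 with siP53 and 8.13 and 8.48 with siScramble (1.03 ± 0.12, limma, adjusted p = 0.00047). It rose about as much with siLincP21 (1.15 ± 0.12), and the 2 siRNAs did not differ by a call (-0.12 ± 0.11). The MCM helicase genes Mcm2 to Mcm7 lay between -0.02 and 0.10 and were not called. Of 21 cyclin, E2F and Rb family genes of G1 and S phase 1 rose and 1 fell (7.01% and 5.74% of all tested genes). E2f7, a repressive E2F, rose (0.50 ± 0.09) and Rb1 fell (-0.80 ± 0.11), and E2f7 was not called without siScramble R1. Of 34 repair and checkpoint genes 7 rose (7.01% of all tested genes), including the kinase Wee1 (0.55 ± 0.11) and Brca1 (0.33 ± 0.07). In the same list 3 fell (5.74% of all tested genes), Ercc5, Msh6 (-0.37 ± 0.07) and the glycosylase Ung (-0.44 ± 0.13). The counts were 1 and 1 without siScramble R1, and again 1 and 1 without siScramble R2.

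**Figure D3:**
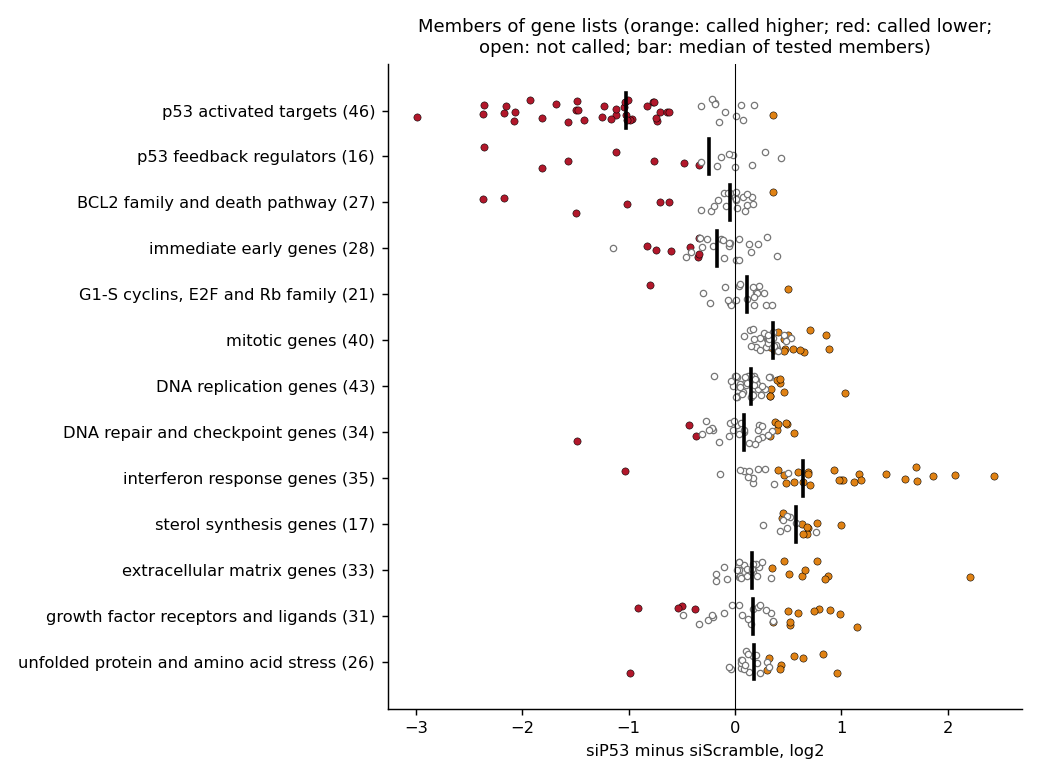
Difference siP53 minus siScramble (log2) of each tested member of 13 gene lists, with the number tested in brackets; filled points are called, open points are not, and bars are medians. The p53 targets centre on -1.02, the interferon genes on 0.64, the sterol genes on 0.57 and the mitotic genes on 0.36. The medians of the other lists run from -0.25 (p53 feedback regulators, 7 of 16 called lower) to 0.18 (unfolded protein and amino acid stress).

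Sterol synthesis genes lay above the controls without exception. For all 17 tested the 3 siP53 values were above both siScramble values, where 46.2% of all tested genes did not overlap. Of the 17, 9 were called higher (7.01% of all tested genes) and 0 lower, with a median of 0.57. Averaged over the list, the siP53 arrays lay 0.45, 0.45 and 0.86 above the siScramble mean, whereas the siLincP21 arrays lay -0.42, -0.31 and -0.08 from it. All 17 were called higher with siP53 than with siLincP21 (9.22% of all tested genes), with a median of 0.83. The count against siScramble was 2 without siScramble R1 and 3 without siScramble R2, and reached 15 over the alternatives.

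Idi1, the isopentenyl diphosphate isomerase, read 11.83, 11.81 and 12.27 with siP53, 10.63, 10.72 and 11.13 with siLincP21 and 10.96 and 10.99 with siScramble, a difference of 0.99 ± 0.17 from siScramble (limma, adjusted p = 0.0039). Fdps, farnesyl diphosphate synthase, read 12.16, 12.12 and 12.35 with siP53, 11.04, 11.11 and 10.96 with siLincP21 and 11.51 and 11.53 with siScramble (0.68 ± 0.09). Each siP53 value stood above all others for both genes, and siP53 R3 was the highest. With siLincP21 against siScramble 3 of the 17 fell (4.39% of all tested genes), Fdps among them (-0.49 ± 0.09). In hnRNPKKD 14 of the 17 rose with siP53, against 19.3% of all tested genes, and 0 fell (median 0.61), and 0 of the 17 differed between the 2 siP53 effects by a call in limma (1 at an unadjusted p below 0.05). With AdenoCRE against AdenoGFP 14 fell (6.24% of all tested genes) and 0 rose.

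**Figure D4:**
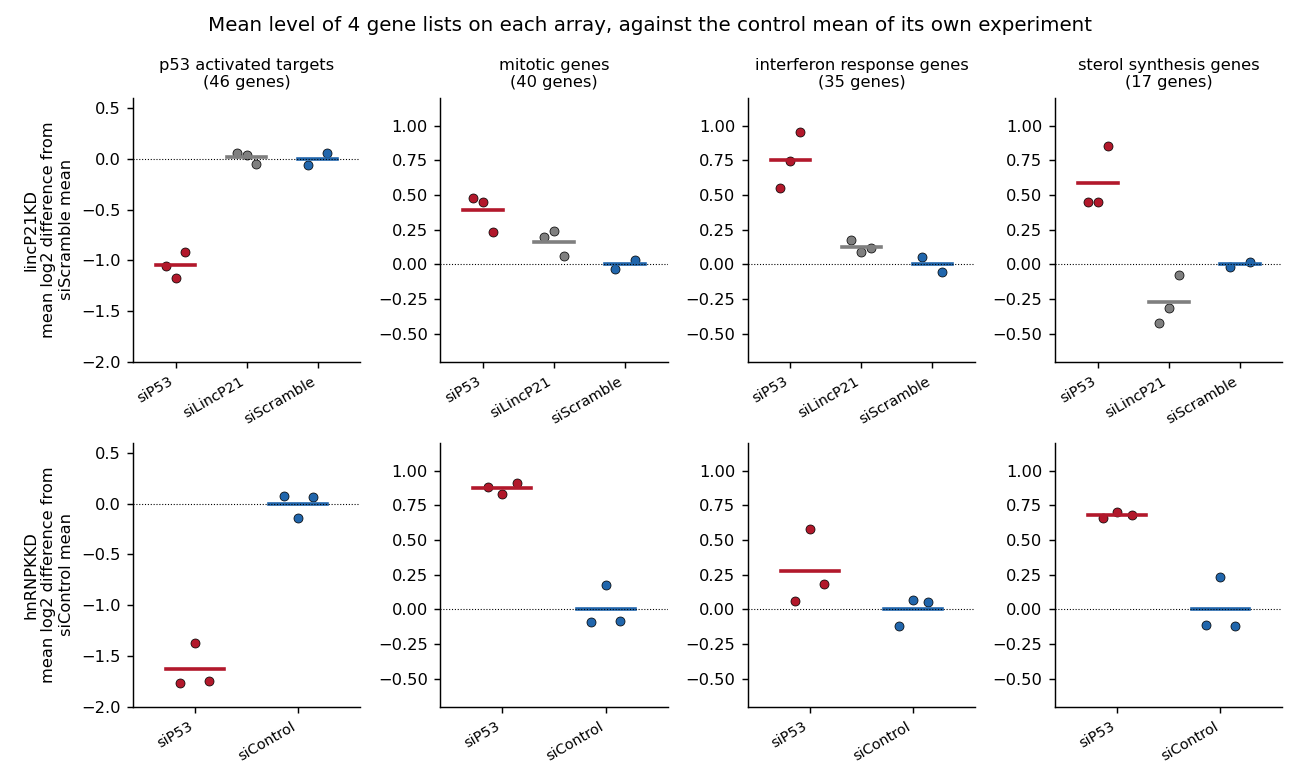
Mean log2 difference of 4 gene lists on each array from the mean of the control arrays of its own experiment, for lincP21KD (siP53, siLincP21 and siScramble) and hnRNPKKD (siP53 and siControl); points are arrays and lines are group means. The p53 targets are lower on every siP53 array (-1.17 to -0.92 in lincP21KD, -1.77 to -1.37 in hnRNPKKD), the sterol genes are higher on every siP53 array, and the interferon genes lie at 0.55 to 0.96 on the siP53 arrays of lincP21KD and at 0.06 to 0.58 on those of hnRNPKKD.

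Of 33 matrix genes 9 rose (7.01% of all tested genes) and 0 fell, with a median of 0.16. With siLincP21 against siScramble 10 of the 33 rose (7.47% of all tested genes) and 1 fell. Directly against siLincP21, 5 were higher with siP53 and 5 lower (9.22% and 11.2% of all tested genes), with a median of -0.02. Both rises were measured against the same 2 siScramble arrays. A low level on these arrays thus cannot be told apart from a rise with both siRNAs. In hnRNPKKD, with its own controls, 21 of the 33 rose with siP53 and 1 fell (19.3% and 19.2% of all tested genes). Mfap5, a protein of elastic microfibrils, read 7.07, 7.13 and 7.10 with siP53 and 4.79 and 4.99 with siScramble (2.21 ± 0.08, limma, adjusted p = 6.38e-07), and a second probe set gave 0.78. Decorin, Dcn, which binds collagen and TGF-beta, read 9.22, 9.18 and 9.36 with siP53 and 8.41 and 8.35 with siScramble (0.88 ± 0.10). Fibromodulin, Fmod, a matrix gene outside the list, rose by 1.63 ± 0.15, although its other probe sets gave 0.22 to 0.79. Collagen Col11a1 (0.77 ± 0.09) and laminin Lama4 (0.66 ± 0.09) rose too, and both also rose with siLincP21 (1.39 ± 0.09 and 0.61 ± 0.09).

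Of 18 matrix proteases and inhibitors Adamts5, an aggrecanase, rose (0.52 ± 0.09, not called without siScramble R1) and Serpinb2 fell (-1.37 ± 0.19). These 2 calls lie near the 7.01% rising and 5.74% falling among all tested genes. Of 24 contractile and TGF-beta genes 2 rose and 3 fell (7.01% and 5.74% of all tested genes), with Inhba, a subunit of activin, at -1.11 ± 0.09. The counts were 0 and 2 without siScramble R1, and 0 and 1 without siScramble R2.

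Of 31 growth factor and receptor genes 10 rose and 4 fell (7.01% and 5.74% of all tested genes), with a median of 0.17. The insulin-like growth factor Igf2 read 9.48, 9.40 and 9.35 with siP53 and 8.30 and 8.54 with siScramble (0.99 ± 0.11), and its binding proteins Igfbp3 (1.15 ± 0.17), Igfbp4 (0.90 ± 0.10), Igfbp2 (0.79), Igfbp5 (0.74) and Igfbp6 (0.52) rose with it. Igfbp7 (0.23) and Igf1 (0.15) were not called. The ligands Pdgfa (-0.92 ± 0.10), Pdgfb (-0.50 ± 0.12), Pdgfc (-0.38 ± 0.10) and Hbegf (-0.54 ± 0.16) were the 4 that fell, whereas the receptors Pdgfra and Pdgfrb rose. Of the 4 ligands, Pdgfa kept its call under all alternatives. The count of rises was 4 without siScramble R1 and 4 without siScramble R2.

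Other single rises of at least 1.5 log2 units were in genes with different roles. The imprinted gene Mest read 9.20, 9.15 and 9.19 with siP53 and 7.59 and 7.52 with siScramble (1.63 ± 0.07), and Cdo1, cysteine dioxygenase, read 7.50, 7.53 and 7.52 with siP53 and 5.47 and 5.76 with siScramble (1.90 ± 0.12). The groups stood more than 1 log2 unit apart for both genes, and the 3 siP53 arrays nearly coincided. The chemokines Cxcl15 (2.38 ± 0.18) and Ppbp (1.61 ± 0.26) and the matrix protein cochlin, Coch (1.61 ± 0.17), rose as well. Cxcl15 also rose with siLincP21 (1.22 ± 0.18), by less than with siP53 (siP53 against siLincP21 1.15 ± 0.16, limma, adjusted p = 0.001). Of the 52 rises of at least 2-fold, 11 were in the interferon list and 35 in none of the lists.

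Of 28 immediate early genes 7 fell (5.74% of all tested genes) and 0 rose, with a median of -0.17. Fos, which forms the AP-1 factor with Jun, read 7.22, 7.44 and 7.44 with siP53 and 8.24 and 8.15 with siScramble (-0.83 ± 0.09), and Egr1 (-0.74 ± 0.15) and the phosphatase gene Dusp5 (-0.60 ± 0.08) fell too. Fos and Dusp5 were also lower with siLincP21 than with siScramble (-0.59 ± 0.09 and -0.87 ± 0.08), and without siScramble R1 or R2 the count was 2 or 3. Of 26 genes of the unfolded protein and amino acid response 8 rose, against 7.01% of all tested genes, among them Slc7a5 (0.64 ± 0.11), Herpud1 (0.55 ± 0.10) and Asns (0.43 ± 0.08), and Sesn2 fell. The 8 were 1 without siScramble R1 and 4 without siScramble R2, and siLincP21 raised 12 of the 26 against siScramble (7.47% of all tested genes). In the hypoxia and glycolysis list 3 of 23 rose and 1 fell (7.01% and 5.74% of all tested genes). Ddit4, an inhibitor of mTORC1, fell to 10.74, 10.80 and 10.84 with siP53, against 11.76 and 11.68 with siScramble (-0.92 ± 0.10). The 3 rises were 1 without siScramble R1 and 0 without siScramble R2. Of 16 NRF2 targets 2 rose (7.01% of all tested genes), Gstm1 (0.47 ± 0.11) and Nqo1 (0.60 ± 0.17), and neither was called without siScramble R2.

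Few genes of RNA binding, translation and protein turnover were called, against 12.7% of all tested genes. Hnrnpk, the partner protein of lincRNA-p21, read 12.75, 13.14 and 12.96 with siP53 and 12.97 and 12.89 with siScramble (0.02 ± 0.11, limma, adjusted p = 0.941). Of 24 hnRNP and splicing genes, 12 small RNA pathway genes and 12 ribosomal protein genes 0 were called in limma (at an unadjusted p below 0.05 they were 1, 0 and 1, in that order), and of 24 proteasome genes 1 was, Psmb7 (0.32 ± 0.07, not called without siScramble R1 or R2). Of 22 polycomb and chromatin genes 1 fell (5.74% of all tested genes), Eed (-0.29 ± 0.07), a call lost in 6 of the 17 alternatives.

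Markers of other cell types were only partly above the limit on low values. Of 11 macrophage markers 6 were above it and 3 fell (1 without siScramble R1 and 2 without siScramble R2), and the defining genes Ptprc, Adgre1, Itgam, Fcgr3 and C1qa were under it. Of all tested genes 5.74% fell. The 11 macrophage markers summed to 554 to 595 units of linear signal on the siP53 arrays, against 800 to 808 on the siScramble arrays. Cd68, a lysosomal membrane protein, read 5.57, 5.68 and 5.83 with siP53 and 7.36 and 7.65 with siScramble (-1.81 ± 0.14). Lyz2 (0.17) and Tyrobp (0.03) were not called. Of 10 neural markers on the arrays Stmn2 (1.001 ± 0.11), Tubb3 (0.88 ± 0.12) and Map2 (0.38 ± 0.09) rose, against 7.01% of all tested genes. The 10 summed to 3478 to 3565 on the siP53 arrays, against 3123 to 3158 on the siScramble arrays. Of 7 epithelial markers tested only Krt7 was called, and it fell (-0.63 ± 0.10), while the list median was 0.10. Of 5 adipocyte markers tested only Lpl was called, and it rose (1.10 ± 0.15, list median 0.07). Of 6 chondrocyte markers tested only Comp was called, and it rose (0.37 ± 0.09, not called without siScramble R1 or R2, list median 0.02). Among all tested genes 7.01% rose and 5.74% fell, so single calls in such short lists do not describe a cell type. Of 5 skeletal muscle and 3 endothelial markers tested 0 were called in limma (0 and 1 at an unadjusted p below 0.05). The 9 endothelial markers on the arrays summed to 515 to 571 on the siP53 arrays, against 584 to 601 on the siScramble arrays. The part of other cells in the results was not tested.

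The siLincP21 arrays served to ask what the p53 siRNA did that the other siRNA did not. Both comparisons with siScramble share its 2 arrays, so their values stand side by side and the direct contrast is the test. Between siP53 and siLincP21 2590 genes (20.4%) were called, 1168 higher and 1422 lower. Of the 91 genes that fell at least 2-fold against siScramble, 90 were also lower than with siLincP21. The exception was Serpinb2, the plasminogen activator inhibitor PAI-2, at 5.20, 5.25 and 5.40 with siP53, 5.17, 4.86 and 5.63 with siLincP21 and 6.47 and 6.84 with siScramble. The siP53 values lay within the range of the siLincP21 values for that gene. Of the 52 rises of at least 2-fold, 44 were also higher than with siLincP21. Both sets were picked on the same siP53 arrays that enter this contrast. The counts of 90 and 44 thus follow in large part from that choice and are no separate support.

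Some of the largest siP53 to siLincP21 differences had opposite parts. Dpyd, which degrades pyrimidines, read 4.54, 4.93 and 5.22 with siP53, 7.77, 7.55 and 8.28 with siLincP21 and 6.20 and 6.43 with siScramble (-2.97 ± 0.20 against siLincP21, limma, adjusted p = 1.53e-05). The siP53 arrays were below the controls and the siLincP21 arrays above them, and another probe set of Dpyd gave -0.52 against siScramble. Penk, proenkephalin, read 9.42, 9.32 and 9.96 with siP53, 6.85, 7.95 and 7.05 with siLincP21 and 8.82 and 8.96 with siScramble (2.28 ± 0.26 against siLincP21), while siP53 against siScramble was not called (0.67 ± 0.29). Mbnl3, a splicing factor, showed the same arrangement (2.02 ± 0.12 against siLincP21 and 0.45 ± 0.14 against siScramble, the second not called).

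The hnRNPKKD experiment repeated the p53 siRNA on other arrays with its own controls. One of its siP53 arrays, R2, stood apart from the other 2, with a lowest correlation over genes within the group of 0.976, and Mdm2 read 8.55, 9.74 and 8.65 on its siP53 arrays and 12.25, 12.08 and 12.27 on its siControl arrays. R2 was thus above its 2 partners and below all controls. There 4888 genes (38.6%) were called. Of the 727 genes that fell in lincP21KD, 579 (79.6%) also fell in hnRNPKKD (19.2% of all tested genes) and 12 rose. Of the 888 that rose, 603 (67.9%) also rose (19.3% of all tested genes) and 18 fell. In turn these were 23.7% of the genes that fell and 24.6% of those that rose in hnRNPKKD. Without the hnRNPKKD siP53 R2 array the shared falls were 557 and the shared rises 606. Without siScramble R1 they were 298 and 185, and without siScramble R2 265 and 298.

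Of the 91 falls of at least 2-fold, 90 were also called lower in hnRNPKKD, and the exception was Ankrd44, named after its values were seen. Across the 12674 genes the 2 effects had a Pearson r of 0.67 and a Spearman rho of 0.56, and across the 1615 called genes 0.85 and 0.81, as a description over genes that are not independent. The arrays share no control. Of the 1615 genes 1087 had a smaller effect in lincP21KD than in hnRNPKKD, as did 9324 of all 12674 tested genes. The 1615 genes were chosen by their effect in lincP21KD, and the median SE over genes was 0.1245 in hnRNPKKD and 0.097 in lincP21KD. These counts thus cannot show whether a smaller effect is particular to the called genes.

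**Figure D5:**
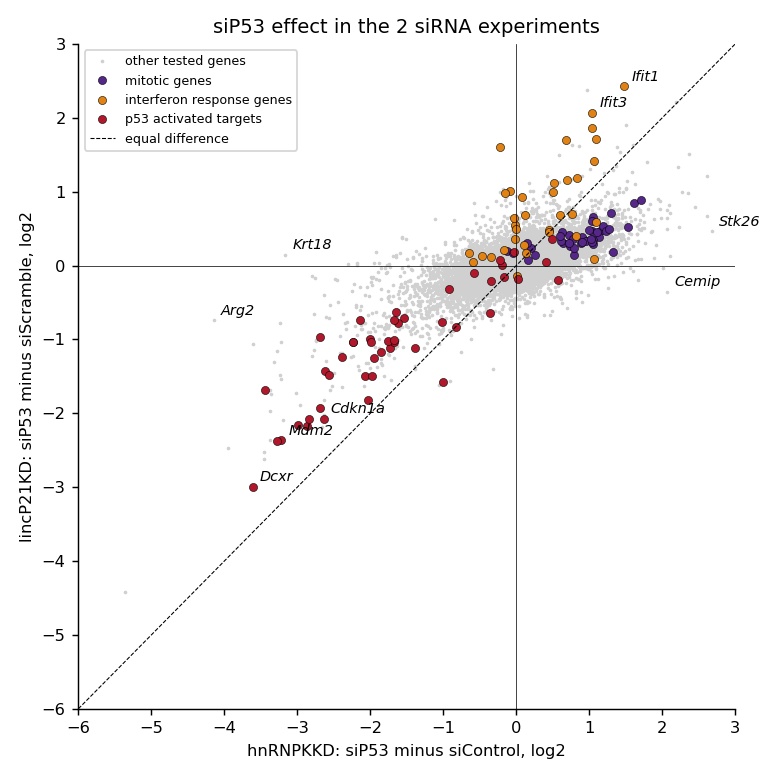
Effect of siP53 in lincP21KD (siP53 minus siScramble, log2) against the effect in hnRNPKKD (siP53 minus siControl, log2) for 12674 genes; the dashed line marks equal effects and 3 gene lists are coloured. Most p53 targets lie above the dashed line at negative values, with a smaller fall in lincP21KD, mitotic genes lie below it at positive values, and many interferon genes lie above it.

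The p53 targets fell as a group in both experiments. In hnRNPKKD 37 of the 46 fell and 2 rose (19.2% and 19.3% of all tested genes), with a median of -1.74 beside -1.02. The test of the difference called 19 of the 46 higher in lincP21KD, each with a fall in hnRNPKKD that was larger, and 2 lower (7.35% and 7.14% of all tested genes). For Cdkn1a the effect was -2.64 ± 0.18 in hnRNPKKD, and the difference of 0.57 ± 0.24 was not called (limma, adjusted p = 0.123). For Perp it was -3.27 ± 0.13, and the difference of 0.90 ± 0.18 was called (limma, adjusted p = 0.0027). The 2 were Ccng1 and Dram1, which was not called in lincP21KD and rose in hnRNPKKD. Ccng1 had -1.01 ± 0.10 in hnRNPKKD and a difference of -0.57 ± 0.15 (limma, adjusted p = 0.0136). Of the 10 targets not called in lincP21KD, Bbc3 and Ctsd fell in hnRNPKKD.

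The time course adds p53 restoration in place of knockdown. Of the 727 genes that fell with siP53 in lincP21KD, 387 (53.2%) were higher with AdenoCRE than with AdenoGFP (12.9% of all tested genes) and 5 were lower. Of the 888 that rose, 232 (26.1%) were lower with AdenoCRE (6.24%) and 54 were higher. Among the 91 falls of at least 2-fold 78 were higher with AdenoCRE and 0 lower. Altogether 356 genes fell with siP53 in both siRNA experiments and were higher with AdenoCRE, which is 49.0% of the falls and 2.81% of tested genes, and 33 of the 46 p53 targets were among them. The reverse pattern held for 164 genes, or 18.5% of the rises. Coch, Hoxd13 and Smoc2 were the 3 rises of at least 2-fold that were also higher with AdenoCRE.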

How the data were processed

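The 30 Affymetrix arrays of mouse embryonic fibroblasts fall into 3 experiments. The deposited values are log2 signal that the authors made with RMA, per the submitters' processing notes. Its version, and whether experiments were normalised together, are not given in the sources used here. Medians of arrays over all probe sets were 5.546 to 5.656 in lincP21KD, 4.832 to 4.914 in hnRNPKKD and 4.976 to 5.032 in the time course, so no level was compared across experiments.

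Of 45101 probe sets 34958 had 1 gene symbol, 932 several and 9211 none, and 34754 matched a current gene entry (GRCm38.p6). For each of 18194 genes the probe set of highest mean signal stood for the gene, and the lowest 40% of probe sets were left out (limit 4.544), which left 12674 genes. Linear models used limma 3.58.1 (lmFit and eBayes) under R 4.3.3, with all groups of an experiment in 1 fit (5 residual degrees of freedom in lincP21KD), the 5 time points as a block in the time course, and a joint fit for differences between experiments. The Benjamini-Hochberg adjustment ran over the 12674 genes. On arrays the number of arrays and the signal over background limit the precision. RefSeq promoter windows were found for 10232 tested genes.

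The comparison, the 33 gene lists and the tests were chosen with earlier results of these data known. Named genes are Cdkn1a, Mdm2 and Hnrnpk, the 12 largest called rises and falls without overlap, up to 4 called members of each list and direction, and the 6 largest at each end against siLincP21 and between the experiments, leaving out predicted genes and clone names. A list with no call is named by its largest difference. Genes named only as list members, with a difference and no error, fall outside that rule. Lists with under 4 tested genes are not described. The alternatives were another choice of probe set, filter, scaling or variance model, a replicate block and each array left out. An experiment with RAS is not used here.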

Additional observations from a re-analysis of the deposited data

Results flagged for a closer look

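The effect of siP53 differed between the 2 siRNA experiments, in a joint limma test of lincP21KD minus hnRNPKKD, for 1837 genes (14.5%). It was higher in lincP21KD for 932 genes and lower for 905. The counts rest in part on the hnRNPKKD siP53 R2 array, without which 2372 and 1979 genes were called.

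The 6 largest positive differences among genes with a proper symbol were falls in hnRNPKKD. For Arg2, an arginase, the difference was 3.41 (-0.74 ± 0.19 in lincP21KD and -4.15 ± 0.18 in hnRNPKKD). For the keratin gene Krt18 it was 3.31 (0.15 ± 0.09, not called, and -3.16 ± 0.13). The growth factor Tgfa differed by 2.67 and the sulfotransferase Hs3st1 by 2.59, and neither was called in lincP21KD. The signalling regulator Rgs5 differed by 2.54 (-1.06 ± 0.14 in lincP21KD and -3.60 ± 0.12 in hnRNPKKD) and the death-associated kinase Dapk1 by 2.46 (-0.78 ± 0.08 and -3.23 ± 0.24).

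The 6 largest negative ones were rises in hnRNPKKD. Cemip, which degrades hyaluronan, differed by -2.42 (-0.35 ± 0.14 in lincP21KD, not called, and 2.07 ± 0.23 in hnRNPKKD). The kinase Stk26 differed by -2.21, the homeobox gene Meox2 by -2.04 and Klhl30 by -1.98, and these 3 were not called in lincP21KD either. The metalloprotease Adam12 differed by -1.94 (0.67 ± 0.13 and 2.61 ± 0.25), and the pentraxin Ptx3 by -1.87 (-0.20 ± 0.09, not called, and 1.67 ± 0.15). The cause of these differences was not tested.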

How the results depend on the processing

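The number of called genes depended on the control arrays. Of the 1615 calls 605 were shared with the 620 made without siScramble R1, and 675 with the 701 made without siScramble R2. Over all arrays left out in turn the counts ran from 288 to 1124 higher and 295 to 908 lower for siP53 against siScramble, 694 to 1053 and 933 to 1292 for siP53 against siLincP21, 172 to 873 and 114 to 550 for siLincP21 against siScramble, 1922 to 3261 and 1878 to 3292 for siP53 in hnRNPKKD, 516 to 2372 and 407 to 1979 for the difference between the experiments, and 817 to 1397 and 329 to 658 in the time course. With array weights the counts were 921 lower for siLincP21 against siScramble, 3815 lower for hnRNPKKD, and 2943 higher and 2397 lower for the difference. With the compared groups only they were 1589 lower for hnRNPKKD, and 474 higher and 450 lower for the difference. With arrays centred, 1834 were higher for siP53 against siLincP21 and 1351 lower in the time course. The cause of these shifts was not tested, apart from the smaller number of arrays in fits that leave some out. For siP53 against siScramble array weights gave 2236 calls and trended variances 1846. With the replicate number as a block there were 1790 calls, of which 1443 were shared, and 32 mitotic, 14 sterol and 22 interferon genes rose. No label ties a replicate number to a shared culture, and deviations from the group means of same-numbered siP53 and siScramble arrays correlated at -0.22 and -0.21, those of siP53 and siLincP21 arrays at 0.21, 0.05 and 0.34, and those of siP53 and siControl arrays in hnRNPKKD at 0.36, 0.36 and -0.19. These did not all have the same sign, and the numbers were not taken as pairs. The deviations of 2 siScramble arrays mirror each other, so their signs cannot decide whether a number marks a pair. Differently numbered siP53 and siLincP21 arrays correlated at -0.30 to 0.21. Whether arrays of one number share an effect is thus not settled, and siScramble has no R3 array. Of 118 called named genes 70 kept their call and sign under all 17 alternatives and 0 changed sign. The shared calls without hnRNPKKD siP53 R2 were an alternative chosen after seeing the data. With 2 control arrays small changes are limited by the SE, whose median over genes was 0.097.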

Other observations

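Other genes that rose at least 2-fold with siP53 lay outside the gene lists and were picked out after their values were seen. Bmp4, a bone morphogenetic protein, read 9.43, 9.29 and 9.40 with siP53 and 7.92 and 8.21 with siScramble (1.30 ± 0.13, limma, adjusted p = 0.000166). Sfrp2, a secreted antagonist of Wnt, read 8.32, 8.05 and 8.47 with siP53 and 6.92 and 7.30 with siScramble (1.17 ± 0.14), and Rspo3, a Wnt agonist, read 7.98, 8.08 and 8.10 with siP53 and 6.82 and 7.28 with siScramble (1.002 ± 0.12). The groups did not overlap for these 3 genes, which were called higher in hnRNPKKD too. The endothelin receptor gene Ednrb had the largest rise of these 4, with 7.87, 8.15 and 8.11 on the siP53 arrays and 6.43 and 6.63 on the siScramble arrays (1.51 ± 0.11).

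Genes of the interferon-induced GTPases that no list held also rose, with Iigp1 at 1.37 ± 0.15, Gbp7 at 1.29 ± 0.18 and Igtp at 1.03 ± 0.12. Igtp was not called in hnRNPKKD (0.44 ± 0.29), whereas Iigp1 and Gbp7 were, and its difference between the experiments was not called (limma, adjusted p = 0.313). Smoc2, a matricellular protein, rose in lincP21KD (1.03 ± 0.18) but was not called in hnRNPKKD (-0.18 ± 0.13), and this difference was called (1.22 ± 0.23, limma, adjusted p = 0.0018).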
